A study of Mus musculus with 6 samples.

Results

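Alternative activation, or M2, marker genes were followed in mouse bone marrow-derived macrophages that had been driven to the opposite, inflammatory M1 state. The 9 genes were taken by name from the deposited table of 54532 genes: Il4ra, Folr2, Mrc1, Chil3, Clec10a, Cd163, Klf4, Pparg and Irf4. They are genes of the IL-4 response and M2 markers other than arginase and the chemokines. Macrophages grown in culture from mouse marrow were either NSUN2-KO, which lack the RNA cytosine methyltransferase NSUN2 by label, or NC, an abbreviation that the labels do not spell out. Both groups received LPS and IFN-γ, and neither unstimulated nor IL-4-treated cells were analysed here. There were 3 NSUN2-KO and 3 NC libraries, called biological replicates; the mice, their age and strain, and the way the knockout was made are not described. Values are FPKM, which scales fragments to gene length and library depth, so that levels can be compared between genes.

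IL-4 binds the receptor chain encoded by Il4ra, which pairs with the common gamma chain or with IL-13Rα1 and signals through Janus kinases to the transcription factor STAT6. In mouse macrophages STAT6 works with PPARγ, KLF4 and IRF4 to switch on Mrc1, Chil3, Clec10a and arginase. Folr2 and Cd163 mark macrophages exposed to M-CSF, IL-10 or glucocorticoids and many tissue-resident macrophages, whereas LPS with IFN-γ generally holds the M2 programme down.

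Reads recovered from the FPKM values numbered 35019033 to 45636131 per library. The macrophage genes Csf1r, Adgre1 and Itgam exceeded 100 FPKM in both groups, and T and NK cell markers summed to 0.0269 to 0.158 FPKM in NSUN2-KO libraries and 0.0217 to 0.182 FPKM in NC libraries. Nsun2 measured 0.967, 1.36 and 0.863 FPKM in NSUN2-KO libraries and 1.88, 2.04 and 1.84 FPKM in NC libraries, so its mRNA was lower but not absent (log2 fold change -0.51, limma adjusted p = 0.0228). Its call ended without any of NSUN2-KO replicates 1 and 3 or NC replicates 1, 2 and 3 (adjusted p from 0.0534 to 0.0845). Ddx3y and Uty, like Kdm5d and Eif2s3y on the Y chromosome, had 0 reads in the NSUN2-KO libraries and were expressed in the NC libraries, while Xist averaged 30.6 ± 1.20 FPKM in NSUN2-KO and 14.5 ± 0.88 FPKM in NC (SD, n = 3; log2 fold change 1.03, limma adjusted p = 9.45e-05). These differences and the knockout cannot be told apart in any result that follows.

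In NSUN2-KO 3 surface genes of the set were lower: the IL-4 receptor chain Il4ra, the folate receptor Folr2 and the mannose receptor Mrc1. The transcription factor Klf4 and the secreted chitinase-like protein gene Chil3 were measured well and did not pass the test. Pparg, Clec10a, Irf4 and Cd163 averaged under 1 FPKM over the 6 libraries. Of the 9 genes, 5 passed the filter of a mean of at least 1 FPKM and entered the fit over all 9443 such genes, in which limma compared log2(FPKM + 1) and an adjusted p below 0.05 counted as a change. In that fit 3 of the 5 were lower and 0 were higher, where 4.3% of all tested genes were called lower, 4.19% higher and 8.49% in either direction. The counts were the same, 3 lower and 0 higher, at an unadjusted p below 0.05, which 13.7% of all tested genes passed as lower and 11.8% as higher, and when voom was run on the recovered reads, which called 7.05% lower and 7.48% higher. The median log2 fold change of the 5 was -0.47, and that of all tested genes was -0.0056. The genes had been chosen with earlier results of these data known, and the filter removed the low ones, so the counts describe the set only.

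**Figure D1:**
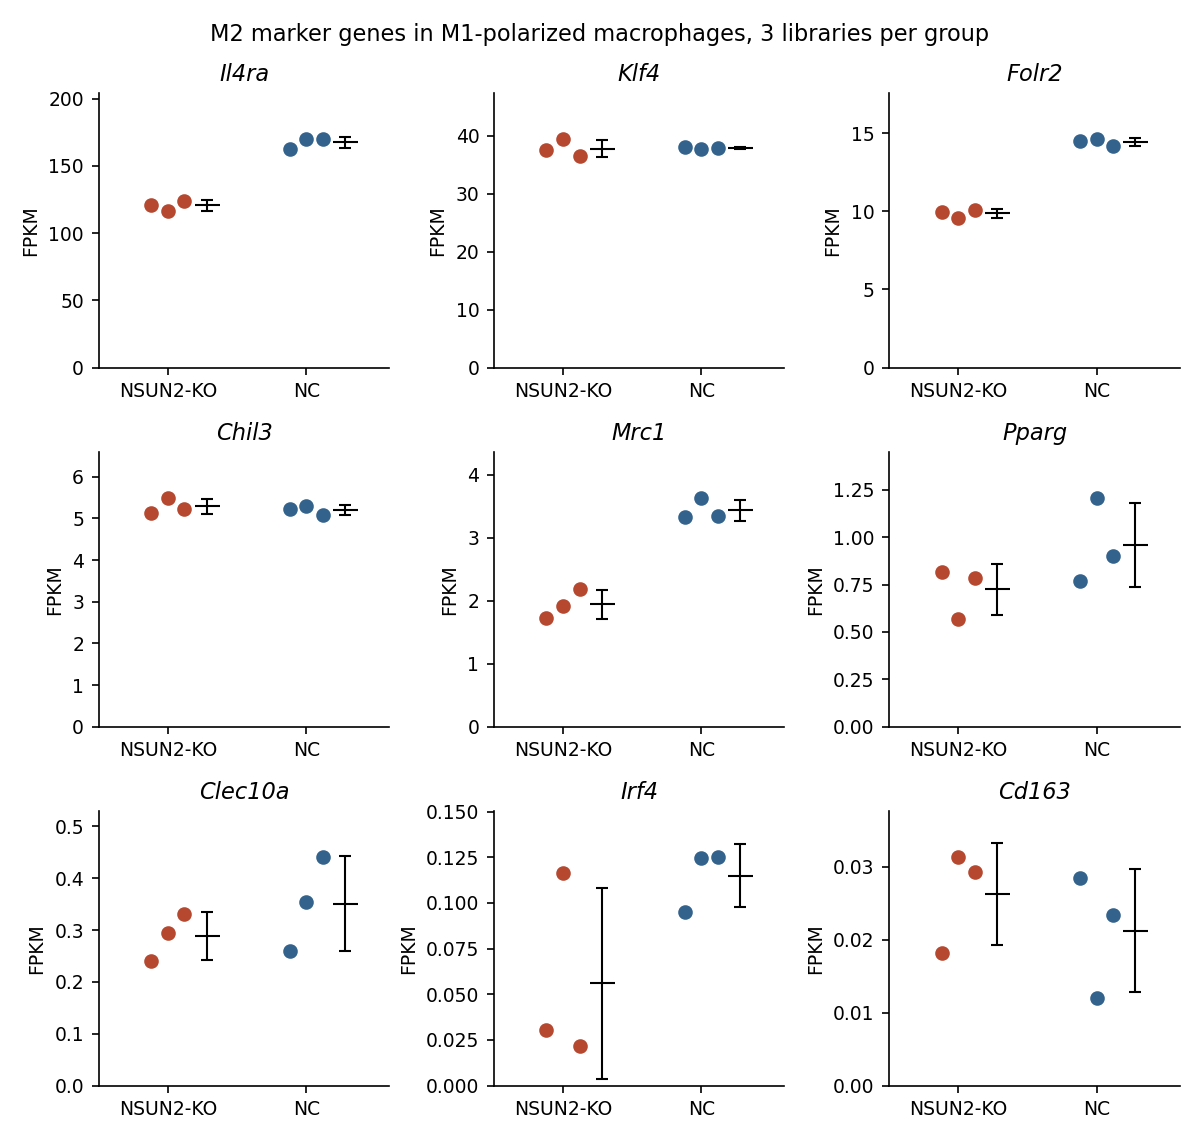
FPKM of the 9 M2 marker genes in each library, with NSUN2-KO in red and NC in blue; bars give the mean and SD of 3 libraries, every axis starts at 0 and each panel has its own scale. The red points of Il4ra, Folr2 and Mrc1 lie below all the blue ones, and in the other 6 genes the groups overlap.

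Il4ra (ENSMUSG00000030748, GRCm38 chromosome 7, positions 125552120 to 125579474, plus strand) was the most abundant of the set. It measured 120.9, 116.7 and 124.3 FPKM in NSUN2-KO replicates 1, 2 and 3 and 162.8, 169.9 and 169.9 FPKM in NC replicates 1, 2 and 3. Every NSUN2-KO library lay below every NC library, with a gap far wider than the spread within either group. The means were 120.6 ± 3.78 FPKM in NSUN2-KO and 167.5 ± 4.07 FPKM in NC (SD, n = 3 libraries each), which put NSUN2-KO at 72% of the NC level. The log2 fold change was -0.47 (SE 0.035, limma adjusted p = 0.000493, 95% interval -0.55 to -0.39). Il4ra ranked 326 to 345 by level among all genes in the NSUN2-KO libraries and 248 to 254 in the NC libraries, so it stayed among the abundant mRNAs of these cells in both groups. The values rested on 24577 to 29156 reads in NSUN2-KO and 37772 to 46682 reads in NC.

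Folr2 (ENSMUSG00000032725, chromosome 7, positions 101839988 to 101857194, minus strand) encodes a surface receptor that binds folate. It measured 9.95, 9.57 and 10.1 FPKM in NSUN2-KO libraries and 14.5, 14.6 and 14.1 FPKM in NC libraries. The groups did not overlap, and within each the libraries lay close together (9.87 ± 0.27 FPKM in NSUN2-KO and 14.4 ± 0.24 FPKM in NC, SD, n = 3). The log2 fold change was -0.50 (SE 0.040, limma adjusted p = 0.000623), and NSUN2-KO held 68.5% of the NC level.

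Mrc1 (ENSMUSG00000026712, chromosome 2, positions 14229392 to 14332057, plus strand) encodes the mannose receptor CD206, an endocytic lectin widely used as an M2 marker. It measured 1.72, 1.91 and 2.19 FPKM in NSUN2-KO libraries and 3.34, 3.63 and 3.35 FPKM in NC libraries. Again all NSUN2-KO libraries were below all NC libraries, here at a low level (1.94 ± 0.23 FPKM in NSUN2-KO and 3.44 ± 0.17 FPKM in NC, SD, n = 3). Mrc1 stood at 56.5% of the NC level in NSUN2-KO. Its log2 fold change was -0.60 on log2(FPKM + 1), a scale that understates changes of low genes (SE 0.075, limma adjusted p = 0.00403), and -0.83 with limma voom on recovered reads. It rested on 428 to 524 reads in NSUN2-KO and 822 to 1059 reads in NC.

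These 3 genes lay far into the lower tail of the tested genes on the log2(FPKM + 1) scale. Only 0.614% of the tested genes had a more negative log2 fold change than Il4ra, 0.466% than Folr2 and 0.286% than Mrc1. All 3 had separate groups, as did 16.7% of tested genes in that direction. Leaving out any 1 library kept each of them called, with adjusted p from 0.00139 to 0.0053 for Il4ra, from 0.0028 to 0.0053 for Folr2 and from 0.00536 to 0.0233 for Mrc1. Over all tested genes the log2 fold change went down with rising transcript GC (Spearman's rho -0.385), a description across genes that are not independent. The transcripts of Il4ra, Folr2 and Mrc1 had 55.9%, 52.5% and 41.3% GC, and a fit that took out smooth trends with GC and length gave log2 fold changes of -0.41, -0.49 and -0.65.

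The ratios between the 3 genes also lay apart, although the 95% intervals of the log2 fold changes of Il4ra and Mrc1 (-0.77 to -0.42) overlapped. The log2 ratio of Mrc1 to Il4ra was -6.13, -5.93 and -5.83 in NSUN2-KO libraries and -5.61, -5.55 and -5.67 in NC libraries. Every NSUN2-KO ratio was thus below every NC ratio, by 0.36 in the mean. The log2 ratio of Folr2 to Il4ra differed less, at -3.61 ± 0.0099 in NSUN2-KO and -3.54 ± 0.048 in NC (SD, n = 3). Both ratios gave p = 0.1 in an exact two-sided permutation test, the smallest that 3 against 3 libraries allow. They were compared after the values had been seen.

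**Figure D2:**
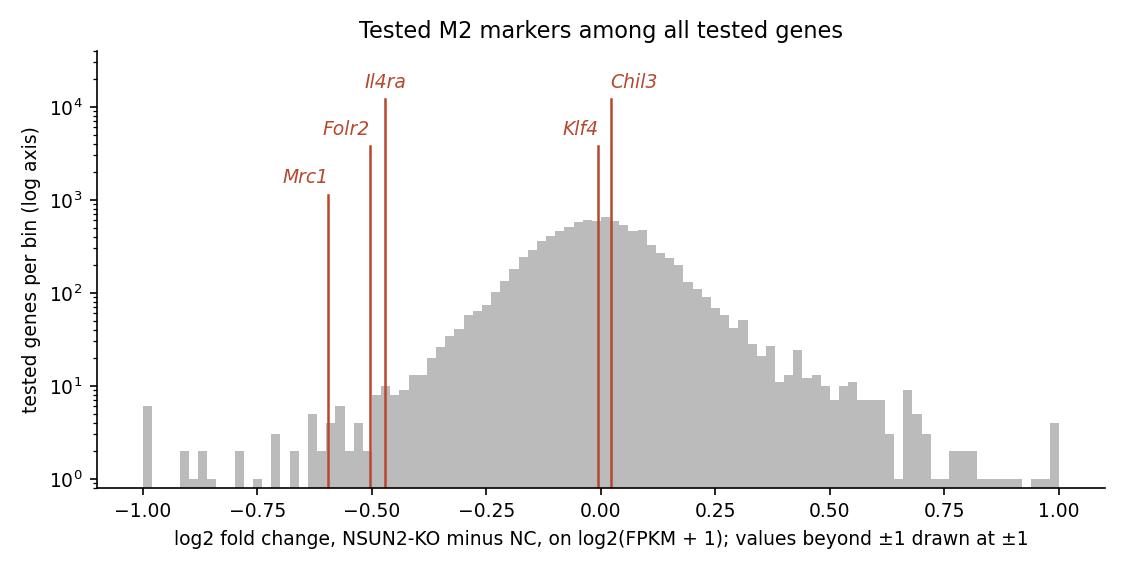
Number of tested genes (log axis) by log2 fold change, NSUN2-KO minus NC, on log2(FPKM + 1); red lines mark the 5 M2 markers tested. Mrc1 (-0.60), Folr2 (-0.50) and Il4ra (-0.47) stand in the lower tail, and Klf4 and Chil3 at the centre.

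The promoter windows of these genes are shown because the 3 genes fell together. They come from RefSeq on GRCm38.p6 and run from 250 bases before to 50 after each annotated start, written 5′ to 3′ on the gene's strand. Capitals mark matches, on either strand, to 5 motifs: the STAT6-type palindrome of TTC, 4 free bases and GAA, the IRF repeat of GAAA, 2 free bases and GAAA, the PU.1 core GAGGAA, the KLF core CACCC, and the octamer-like ATGNAAAT. The octamer-like motif was added after the sequences had been read. No matches of different motifs overlap in these windows.
Il4ra, chr7:125552021-125552320, plus strand: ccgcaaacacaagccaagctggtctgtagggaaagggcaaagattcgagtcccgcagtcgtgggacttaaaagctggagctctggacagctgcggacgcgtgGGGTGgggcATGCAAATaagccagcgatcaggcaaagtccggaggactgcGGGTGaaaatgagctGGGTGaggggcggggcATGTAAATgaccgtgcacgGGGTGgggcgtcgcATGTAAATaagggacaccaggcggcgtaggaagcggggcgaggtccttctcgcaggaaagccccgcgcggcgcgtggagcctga
Folr2 start 1, chr7:101857141-101857440, minus strand: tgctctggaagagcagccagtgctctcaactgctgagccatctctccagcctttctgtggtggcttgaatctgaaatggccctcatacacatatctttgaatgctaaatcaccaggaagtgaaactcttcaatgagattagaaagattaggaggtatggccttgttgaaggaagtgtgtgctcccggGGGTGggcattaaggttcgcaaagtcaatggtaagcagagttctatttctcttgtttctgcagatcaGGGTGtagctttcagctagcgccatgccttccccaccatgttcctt
Folr2 start 2, chr7:101845282-101845581, minus strand: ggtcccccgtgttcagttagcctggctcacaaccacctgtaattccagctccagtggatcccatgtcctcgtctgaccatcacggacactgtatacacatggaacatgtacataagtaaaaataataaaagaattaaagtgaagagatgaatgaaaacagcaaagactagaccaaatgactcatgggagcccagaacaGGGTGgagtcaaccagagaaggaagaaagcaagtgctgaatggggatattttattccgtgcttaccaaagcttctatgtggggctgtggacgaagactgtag
Mrc1, chr2:14229164-14229463, plus strand: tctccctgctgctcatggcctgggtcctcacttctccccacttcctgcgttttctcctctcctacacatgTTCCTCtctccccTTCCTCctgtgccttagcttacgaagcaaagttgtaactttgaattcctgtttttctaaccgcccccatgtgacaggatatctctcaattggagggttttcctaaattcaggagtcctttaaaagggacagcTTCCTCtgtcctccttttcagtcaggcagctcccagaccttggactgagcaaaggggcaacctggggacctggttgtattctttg

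The windows of the 3 lower genes shared few letters among the motifs searched. The Il4ra window held 4 matches to CACCC and 3 to ATGNAAAT. The window at start 1 of Pparg also held 4 matches to CACCC. Pparg start 2 and Irf4 each held 1 match to GAGGAA and 1 to CACCC. Both genes lay below the filter of the main fit, so they do not stand for unchanged genes. The windows of Klf4 and Chil3, which were tested and not called, and that of Cd163 held 0 matches to any of the motifs. A match to CACCC occurred in 57.5% of the 32851 windows of the same length, and at least 4 in 3.1%. At least 1 match to ATGNAAAT occurred in 5.67% of windows and at least 3 in 0.0457%. The Mrc1 window held 3 matches to GAGGAA, all on the opposite strand, where 28.3% of windows held at least 1 and 0.685% at least 3. The cutoffs of 4 and 3 matches were the counts found in these same windows, and ATGNAAAT was chosen after reading them. The shares are therefore a description and not a test of rarity. The Folr2 windows held CACCC only, with 2 matches at start 1 and 1 at start 2. The STAT6-type palindrome, present in 6.95% of windows, and the IRF repeat, present in 3.44%, were in none of the windows of the 8 genes that matched the RefSeq table; Clec10a had no entry. The gene-level values do not separate transcripts from the Folr2 starts.

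Around the receptor, the partner chains and the kinases did not pass the test while Il4ra fell. The list of IL-4 and IL-13 signalling genes held 15 genes besides Il4ra, of which 11 were tested and 0 were lower and 0 higher in limma. At an unadjusted p below 0.05, 3 were lower and 1 was higher (13.7% and 11.8% of all tested genes), voom on recovered reads called 2 lower and 1 higher (7.05% and 7.48% of all), and without NC replicate 1 the count of lower genes was 2. Il2rg, the common gamma chain, measured 68.3, 65.9 and 65.9 FPKM in NSUN2-KO libraries and 68.5, 70.1 and 73.8 FPKM in NC libraries. These values lay side by side with no overlap, but the difference was small (log2 fold change -0.085, limma adjusted p = 0.200, 95% interval -0.17 to 0.00087). Il13ra1, the partner chain of the receptor shared with IL-13, averaged 44.5 ± 2.17 FPKM in NSUN2-KO and 44.1 ± 2.25 FPKM in NC (SD, n = 3), with overlapping groups. Stat6, the transcription factor below the receptor, averaged 53.6 ± 1.15 FPKM in NSUN2-KO and 56.6 ± 0.75 FPKM in NC (log2 fold change -0.076, limma adjusted p = 0.179). The kinases Jak1 and Tyk2 had log2 fold changes of 0.035 and -0.052. Jak3, the kinase bound to the gamma chain, had a larger one of -0.23 that missed the threshold (limma adjusted p = 0.0877), as did Socs3, an inhibitor of cytokine signalling (-0.13, limma adjusted p = 0.0516), and the adaptor gene Irs2 (0.19, limma adjusted p = 0.101).

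Il4ra was thus lower relative to its partner chains. The linear ratio of Il4ra to Il2rg was 1.77 to 1.89 in NSUN2-KO libraries and 2.30 to 2.42 in NC libraries. The ratio of Il4ra to Il13ra1 was 2.52 to 2.95 in NSUN2-KO libraries and 3.50 to 4.04 in NC libraries. In both ratios the groups lay apart, by -0.39 and -0.49 on the log2 scale, and a ratio within a library does not depend on how libraries were scaled. An exact two-sided permutation test gave p = 0.1 for each, the smallest possible. Il2rg and Il13ra1 both lie on the X chromosome. The groups also differed in Xist and in Y chromosome genes, and the part of this in the ratios was not tested. Il4 itself had 32, 20 and 33 reads in NSUN2-KO libraries and 24, 20 and 22 reads in NC libraries.

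**Figure D3:**
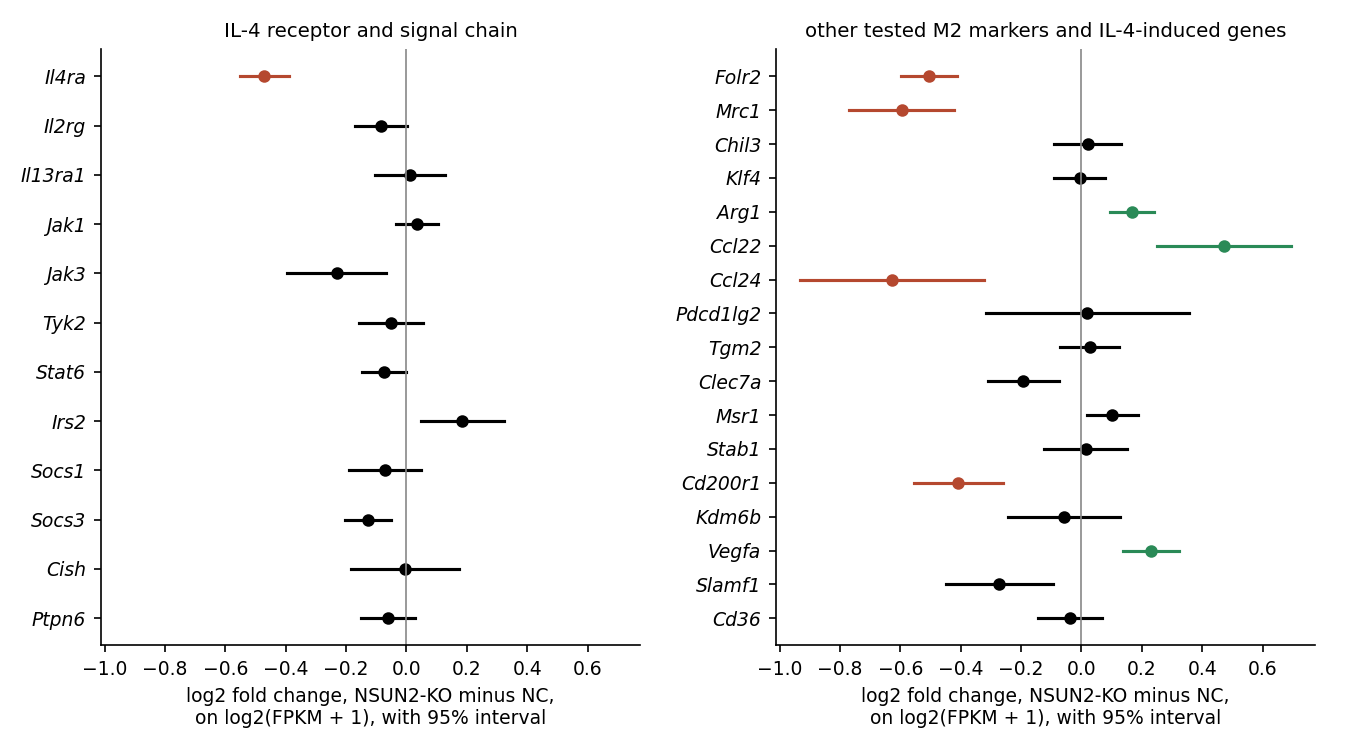
Log2 fold changes (points) with 95% intervals (lines) from limma on log2(FPKM + 1), NSUN2-KO minus NC, for Il4ra and tested signalling genes at left and for other tested M2 markers and IL-4-induced genes at right; red is lower, green higher and black not called at an adjusted p below 0.05. Among the receptor and signalling genes Il4ra at -0.47 is the called one.

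Among the transcription factors of the set, Klf4 was abundant and close in level between groups. Klf4 (ENSMUSG00000003032, chromosome 4, positions 55527143 to 55532466, minus strand), a zinc finger factor induced by IL-4 through STAT6, measured 37.5, 39.4 and 36.5 FPKM in NSUN2-KO libraries and 38.1, 37.7 and 37.9 FPKM in NC libraries. The NSUN2-KO values lay on both sides of the NC values. The log2 fold change was -0.0064 (SE 0.037, limma adjusted p = 0.935), and its 95% interval of -0.092 to 0.079 leaves out a change as large as that of Il4ra. The sign of this near-zero value turned with several settings and reached 0.079 in the fit without GC and length trends, without a call (limma adjusted p = 0.307).

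Pparg, the lipid-sensing nuclear receptor that supports the M2 state, measured 0.817, 0.569 and 0.784 FPKM in NSUN2-KO libraries and 0.771, 1.21 and 0.900 FPKM in NC libraries. The groups overlapped, and the counts behind them were 59 to 97 reads in NSUN2-KO and 88 to 163 reads in NC. Irf4, the interferon regulatory factor linked to IL-4 responses, measured 0.0305, 0.116 and 0.0217 FPKM in NSUN2-KO libraries and 0.095, 0.125 and 0.125 FPKM in NC libraries. Only 4 to 20 reads in NSUN2-KO and 18 to 28 reads in NC stood behind these values, and NSUN2-KO replicate 2 lay within the NC range. With limma voom on every gene with at least 10 reads, a setting chosen after seeing the data, Irf4 had a log2 fold change of -1.39 (SE 0.60, unadjusted p = 0.0273, adjusted p = 0.194). Pparg had -0.40 in the same fit (SE 0.23, adjusted p = 0.384). Neither passed, in a fit that called 3.34% of 18356 genes lower, 3.84% higher and 7.17% in either direction. Limma on log2(FPKM + 1) with no filter, which called 0.483% of 24414 genes lower, 0.602% higher and 1.09% in either direction, did not call them either (adjusted p = 0.618 for Pparg and 0.488 for Irf4).

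The effector genes of the set split by level. Chil3 (ENSMUSG00000040809, chromosome 3, positions 106147554 to 106167564, minus strand), which encodes the secreted chitinase-like protein Ym1, measured 5.14, 5.48 and 5.24 FPKM in NSUN2-KO libraries and 5.22, 5.30 and 5.07 FPKM in NC libraries. The groups overlapped, the log2 fold change was 0.021 (SE 0.048, limma adjusted p = 0.831) and the 95% interval ran from -0.091 to 0.13. Its near-identical neighbour Chil4 had 0 reads in all 6 libraries. How reads that fit both genes were counted is not given, which limits the levels of both. Clec10a, a galactose-type lectin, had 28, 30 and 36 reads in NSUN2-KO libraries and 29, 47 and 50 reads in NC libraries, or 0.289 ± 0.045 FPKM in NSUN2-KO and 0.351 ± 0.091 FPKM in NC (SD, n = 3). Its close relative Mgl2 had 2, 0 and 0 reads in NSUN2-KO libraries and 0, 11 and 0 reads in NC libraries, so all its NC reads came from replicate 2. Cd163, the haemoglobin scavenger receptor, had 4, 6 and 6 reads in NSUN2-KO libraries and 6, 3 and 5 reads in NC libraries. With the voom fit on low genes the log2 fold changes were -0.27 for Clec10a (SE 0.35, adjusted p = 0.765) and 0.35 for Cd163 (SE 0.83, adjusted p = 0.885). Their 95% intervals, -0.98 to 0.45 for Clec10a and -1.35 to 2.05 for Cd163, both take in the voom value of Mrc1.

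The order of levels was the same in both groups. It ran from Il4ra through Klf4, Folr2, Chil3, Mrc1, Pparg, Clec10a and Irf4 to Cd163. Neighbours in this order did not overlap in any library of a group, apart from Irf4 and Cd163 in NSUN2-KO. The step between Chil3 and Mrc1 was 2.72-fold in NSUN2-KO and 1.51-fold in NC, and that between Il4ra and Klf4 was 3.19-fold in NSUN2-KO and 4.42-fold in NC.

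Other genes that IL-4 induces moved in both directions. Of 28 such genes outside the set 13 were tested, with 2 lower and 3 higher in limma, where 4.3% and 4.19% of all tested genes were called. Cd200r1, an inhibitory receptor of macrophages, fell to 8.29 ± 0.72 FPKM in NSUN2-KO, against 11.3 ± 0.46 FPKM in NC (log2 fold change -0.41, limma adjusted p = 0.0101), a call that ended with no filter on low values. Ccl24, named after its values were seen, was the other lower gene (0.979 ± 0.19 FPKM in NSUN2-KO and 2.07 ± 0.48 FPKM in NC). Vegfa, the vascular growth factor, was higher at 23.3 ± 0.70 FPKM in NSUN2-KO and 19.7 ± 0.60 FPKM in NC. So were Arg1, the M2 arginase, at 443.1 ± 12.2 FPKM in NSUN2-KO and 394.3 ± 6.71 FPKM in NC, and Ccl22, a chemokine, at 2.12 ± 0.26 FPKM in NSUN2-KO and 1.25 ± 0.21 FPKM in NC (SD, n = 3 throughout). The calls of Arg1 (without NSUN2-KO replicate 1 or NC replicates 2 or 3, adjusted p from 0.0664 to 0.0783), Ccl22 (without NSUN2-KO replicates 1 or 2 or NC replicates 1 or 2, 0.0648 to 0.0859), Ccl24 (without any NSUN2-KO replicate or NC replicates 1 or 3, 0.0595 to 0.0975) and Vegfa (without NSUN2-KO replicate 1, 0.0677, or NC replicate 2, 0.0551) ended when 1 library was left out. Without such a library the count of higher genes was as low as 0 (NSUN2-KO replicate 1 or NC replicate 2), and that of lower genes 1 (any NSUN2-KO replicate or NC replicates 1 or 3). Calls over all tested genes also dropped without 1 library. They went from 406 lower and 396 higher to 123 to 283 lower and 153 to 313 higher. Retnla, Ccl17 and Chil4, strongly induced by IL-4 in mouse macrophages, had 0 reads in every library. A floor of 3 reads per library leaves at most 0.143, 0.166 and 0.0304 FPKM. For Chil4 this covers only reads assigned to it, since the handling of reads that also fit Chil3 is not given.

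Of 15 tested partners and targets of PPARγ, 2 fell and 0 rose, where 4.3% of all tested genes fell and 4.19% rose. With voom on recovered reads 3 were lower and 0 higher, where that fit called 7.05% of all tested genes lower and 7.48% higher. Abcg1, a sterol transporter, measured 32.3 ± 0.068 FPKM in NSUN2-KO and 46.0 ± 0.90 FPKM in NC (log2 fold change -0.50, limma adjusted p = 0.000282). Rxra, the receptor that pairs with PPARγ on DNA, measured 8.21 ± 0.16 FPKM in NSUN2-KO and 9.97 ± 0.66 FPKM in NC (log2 fold change -0.25, limma adjusted p = 0.0290). The call of Rxra ended without any NSUN2-KO replicate or NC replicates 2 or 3 (adjusted p from 0.0561 to 0.101), which left Abcg1 alone. The other 13 were not called. Among them, named after their values were seen, Lpl, a lipase that PPARγ induces, had a log2 fold change of -0.17 with separate groups (limma adjusted p = 0.0995), and the targets Cd36, Fabp4 and Plin2 had -0.039, -0.011 and -0.0010. Among 14 tested relatives of Irf4 and Klf4, 1 was lower and 1 was higher, counts near the 4.3% and 4.19% of all tested genes. Irf7, a factor of the interferon response, measured 656.6 ± 9.13 FPKM in NSUN2-KO and 725.1 ± 19.0 FPKM in NC, and Klf10 measured 17.2 ± 0.067 FPKM in NSUN2-KO and 14.3 ± 0.75 FPKM in NC. Irf7 lost its call without any NSUN2-KO replicate or NC replicates 2 or 3 (adjusted p from 0.0605 to 0.110), and Klf10 without NSUN2-KO replicate 1 (adjusted p = 0.0664). Without 1 library the list held 0 to 2 lower and 0 to 2 higher genes; both counts were 2 without NC replicate 1 and 0 without NSUN2-KO replicate 1, and the lower count was also 0 without NSUN2-KO replicate 2 or NC replicates 2 or 3.

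Genes of tissue-resident macrophages, with which Folr2, Mrc1 and Cd163 are often listed, included 5 that fell and 0 that rose among 10 tested, beside 4.3% and 4.19% of all tested genes. Their median log2 fold change was -0.14, beside -0.0056 over all tested genes. C1qc and C1qa, chains of the complement protein C1q, measured 224.5 ± 4.18 and 163.9 ± 5.40 FPKM in NSUN2-KO and 276.9 ± 12.5 and 208.6 ± 10.7 FPKM in NC. Selenop, a selenium transport protein, measured 34.1 ± 1.99 FPKM in NSUN2-KO and 42.9 ± 1.02 FPKM in NC. Gas6, a bridge between apoptotic cells and phagocyte receptors, measured 4.28 ± 0.15 FPKM in NSUN2-KO and 5.82 ± 0.28 FPKM in NC (SD, n = 3). Leaving out any 1 library kept these 4 genes called, as it did Il4ra, Folr2 and Mrc1. The fifth lower gene, named after its values were seen, was C1qb, another C1q chain, which also kept its call in those fits. Maf, Pf4, Stab1, Igf1 and F13a1, the other 5 tested, were not called, and Lyve1, Timd4, Cd209f, Cd209g and Cbr2 lay under 1 FPKM.

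**Figure D4:**
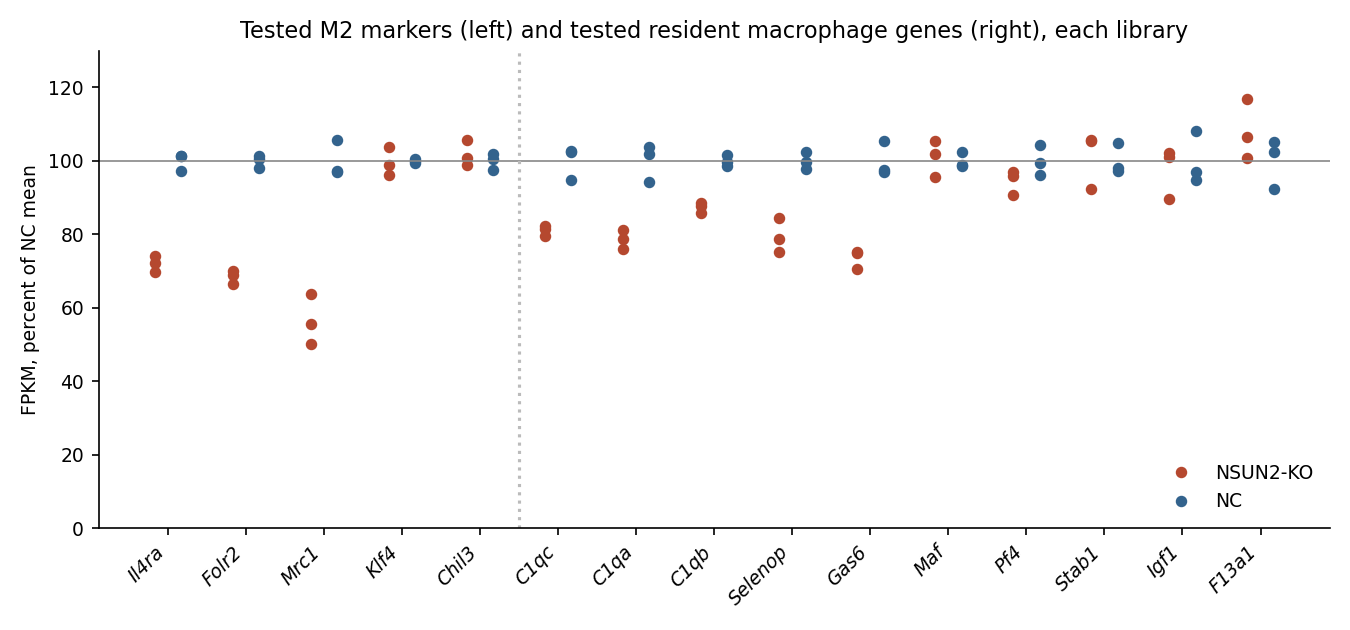
FPKM of each library as percent of the NC mean for the 5 tested M2 markers and the 10 tested resident macrophage genes; red points are NSUN2-KO libraries and blue points NC libraries. Il4ra, Folr2, Mrc1 and 5 of the resident macrophage genes have all red points below all blue ones.

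M1 genes and markers of other myeloid cells moved in the same libraries. Of 10 M1 genes 7 were higher and 0 were lower, beside 4.19% and 4.3% of all tested genes; Il1b, Il12b, Il6 and Tnf had the smallest p. Without 1 library 5 to 7 were higher, since Nos2 lost its call without NSUN2-KO replicate 1 or NC replicate 3 (adjusted p = 0.0667 and 0.0588) and Fpr2 without any library but NSUN2-KO replicate 3 (0.0658 to 0.101). Among 9 tested macrophage identity genes 4 fell and 1 rose, with Lyz2 at a log2 fold change of -0.58, Cd68 at -0.20, Spi1 at -0.17 and Cd14 at 0.29. Of 13 neutrophil markers 6 were tested and 3 were lower (Csf3r, Mmp8 and S100a9), and the list summed to 81.7 to 85.9 FPKM in NSUN2-KO libraries and 100.9 to 108.5 FPKM in NC libraries. The neutrophil genes Retnlg and Elane had 0 reads. Of 5 tested monocyte markers 1 was higher (Ly6c2), and 2 were without NC replicate 1. The list summed to 59.3 to 66.3 FPKM in NSUN2-KO libraries and 53.7 to 55.0 FPKM in NC libraries. Of the 5 log2 fold changes 4 were positive and 1 was negative, that of Ccr2 (-0.22, limma adjusted p = 0.0943). Of 4 tested dendritic cell markers 1 was higher (Ccr7), and the 10 genes of the list summed to 11.2 to 12.6 FPKM in NSUN2-KO libraries and 7.27 to 9.25 FPKM in NC libraries. B cell markers summed to under 1 FPKM in every library. Markers of eosinophils, basophils and mast cells summed to 0.776 to 1.18 FPKM in NSUN2-KO libraries and 0.238 to 0.656 FPKM in NC libraries. Fcgr1, the other lower identity gene (log2 fold change -0.12), lost its call without any library but NC replicate 1 (adjusted p from 0.0749 to 0.147), and without NSUN2-KO replicates 1 or 2 or NC replicates 2 or 3 the count of lower identity genes was 1. The calls of Cd68 and Spi1 (without NSUN2-KO replicates 1 or 2 or NC replicates 2 or 3, adjusted p from 0.0583 to 0.0913), S100a9 (without NSUN2-KO replicates 1 or 3 or any NC replicate, 0.0538 to 0.101) and Ccr7 (without NSUN2-KO replicate 1, 0.06) ended when 1 library was left out. In bulk RNA fewer cells of a type and less RNA per cell cannot be told apart, and the part of these markers in the results for the M2 genes was not tested.

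The genes whose pattern over the 6 libraries was most like that of each tested marker, by Pearson's r of log2(FPKM + 1), were Sept9, Ctsb and Crtc2 for Il4ra, with r of 0.996 or more. For Folr2 they were Cerk, Ctsh and the Y-linked Ddx3y, and for Mrc1 the small nuclear RNA gene Gm26110, Cd37 and Dok2. All 9 of these genes were lower in NSUN2-KO by the limma test, so the likeness includes the difference between groups. For Klf4 they were Hnrnpc, Foxp1 and Ndfip2 and for Chil3 Map3k7, Rpl28 and the pseudogene Gm11425, none of them called. With 6 libraries and 9443 genes such values are a description only.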

How the data were processed

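RNA-seq was carried out on 6 libraries of M1-polarized bone marrow-derived macrophages, 3 NSUN2-KO and 3 NC. The submitters' processing notes list featureCounts 1.5.0-p3, HISAT2 2.0.5, fastp, DESeq2 1.20.0 and CASAVA 1.8, and the mouse build GRCm38. Settings, annotation release and strand use: not given in the sources used here. Reads of the low antisense genes that overlap Il4ra, Folr2 and Pparg cannot be separated. The authors deposited FPKM per gene with the gene length used. FPKM times length was a whole multiple of 1 step per library for 100% of values above 0 (tolerance 0.01 reads), which gave the reads. No molecular identifiers are recorded, so reads may include PCR copies and floors cover counting error only.

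Every gene averaging 1 FPKM or more over the 6 libraries was tested with limma 3.58.1 (R 4.3.3, mean-variance trend, no covariate) on log2(FPKM + 1), with Benjamini-Hochberg adjustment over all 9443 genes. The 4 marker genes under the filter are given with their reads and a limma voom fit. The test was run on simulated reads with the same extra spread in every gene and no GC trend. That check does not cover the GC trend of these data. Where nothing records separate animals, p-values measure the spread between these libraries, which may be technical. The members, gene lists and tests were chosen with earlier results of these data known. Besides the 9 marker genes the text names, per list, called genes or the 4 with the smallest p, the signalling genes, relatives of members, and the 3 genes most like each tested marker. Some items are not reported here. Alternatives are given in the closing part. Sequences and motif searches used Python 3.11.15.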

Additional observations from a re-analysis of the deposited data

How the results depend on the processing

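Il4ra and Folr2 were lower with an adjusted p below 0.05 in all 17 alternatives and Mrc1 in all 16 that tested it (log2 fold changes -0.49 to -0.41, -0.54 to -0.38 and -0.83 to -0.28). With a filter at a mean of 5 FPKM, Mrc1 was not tested. The count of higher M2 members was 0 in every alternative. Near-zero values changed sign: Klf4 was 0.0011 after rescaling by median ratios, 0.0028 as TPM, 0.079 in the fit without GC and length trends and -0.036 to 0.018 in the fits without 1 library, and Chil3 was -0.013 without GC and length trends and -0.0016 to 0.038 in those fits. Changed genes over the whole table numbered 802, and 265 with no filter, 526 with no mean-variance trend, 1372 with limma voom on recovered reads, 1317 with voom on every gene with at least 10 reads, 351 with the replicate block and 276 to 596 in the fits without 1 library. The replicate block ended no call of a member. Over all tested genes same-numbered libraries did not deviate together (correlations -0.0298 to 0.00343). This does not show that they were unpaired, since a pairing that touched few genes would give similar values.

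With no filter, IL-4-induced genes had 0 lower and 1 higher, PPARγ genes 1 lower, and IRF and KLF genes 0 lower and 0 higher. At 5 FPKM the signalling list had 1 lower, the IL-10 list 1 lower, and IRF and KLF genes 3 lower. With no trend IRF and KLF genes had 0 lower, and as TPM PPARγ genes had 1 lower. Voom on recovered reads gave 2 lower and 1 higher signalling genes, and 4 lower and 4 higher IL-4-induced genes. It also gave 1 lower IL-10 gene, and 3 lower and 2 higher IRF and KLF genes. Voom on every gene with at least 10 reads gave 2 lower signalling genes, and 4 lower and 4 higher IL-4-induced genes. It also gave 2 lower and 1 higher IL-10 genes, and 3 lower and 2 higher IRF and KLF genes. With the replicate block IL-4-induced genes had 1 lower and 1 higher, PPARγ genes 1 lower, and IRF and KLF genes 0 of either. Without GC and length trends, signalling genes had 1 higher, IL-4-induced genes 4 lower and 4 higher, the IL-10 list 1 higher, and IRF and KLF genes 0 lower. Without 1 library, lower and higher counts were 0 to 2 and 0 for signalling, 1 to 3 and 0 to 3 for IL-4-induced, 1 to 2 and 0 for PPARγ, and 0 to 2 and 0 to 2 for IRF and KLF genes. The GC and length fit and voom on low genes were added after seeing the data, and the cause of these differences was not tested. The depth of Cd163, Irf4, Clec10a and Pparg limits what can be seen of them.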

Other observations

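Genes of the IL-10 and glucocorticoid responses, which raise Cd163 and Mrc1 in many macrophage cultures, held 13 tested members of 14, and 0 were lower and 0 higher in limma at an adjusted p below 0.05. At an unadjusted p below 0.05 3 were lower and 3 higher (13.7% and 11.8% of all tested genes), and limma voom on recovered reads called 1 lower (7.05% of all). Il10 averaged 8.28 ± 0.97 FPKM in NSUN2-KO and 7.83 ± 1.02 FPKM in NC, and its receptor gene Il10ra 62.9 ± 1.14 FPKM in NSUN2-KO and 65.4 ± 0.50 FPKM in NC (SD, n = 3 libraries each). Nr3c1, the glucocorticoid receptor, averaged 50.3 ± 1.61 FPKM in NSUN2-KO and 46.8 ± 1.18 FPKM in NC. These genes were named after their values were seen.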
